A study of Mus musculus with 2 samples.

Results

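Col3a1 and Col5a2 are neighbouring collagen genes on mouse chromosome 1, described here across every YTHDF2 peak that lay over either of them. They were chosen by their peaks: both stand in the authors' table of genes with peaks. All peaks of the authors' list that overlapped the annotated gene bodies in mm10 by at least 1 bp were then added. This gave 28 of the 9271 peaks in the list, 6 over Col3a1 and 22 over Col5a2. Since the peaks themselves chose the genes, the number of peaks and their enrichment are a description with no test.

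The series measured which RNA fragments an antibody to YTHDF2 recovered from C2C12 myotubes (RNA immunoprecipitation followed by sequencing, RIP). C2C12 cells are mouse myoblasts of an established line, which fuse into myotubes once the serum is lowered. The 2 groups were the YTHDF2 RIP and the input, both from wild-type C2C12 cells labelled as myotubes, with no added treatment and with batch label 1. Each group was 1 library, so no value has a replicate and replicate spread is unknown. An IgG control named in the design text was not analysed here.

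YTHDF2 is a cytoplasmic protein that binds N6-methyladenosine (m6A) in mRNA and brings the deadenylation machinery to it. Col3a1 encodes the chain of type III collagen, a homotrimer found beside type I collagen in skin, vessel walls and the connective tissue of muscle. Col5a2 encodes the α2 chain of type V collagen, which pairs with chains from Col5a1 and is built into type I fibrils, whose diameter it limits. Both genes are split into many short exons that code for the triple helix, with long introns near the 5′ end that splicing removes in the nucleus.

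The authors' gene table listed 1 peak for each gene, and both of these peaks began in an exon and ran across its 5′ splice site into the intron. They are shown first because they are what put the pair in that table. Positions are those of mm10 (GRCm38) in the authors' list, bases were read from the RefSeq sequence of GRCm38 on the strand of the gene, and capitals mark exon bases.
Col3a1 exon 1 peak, chr1:45311773-45312021, plus strand: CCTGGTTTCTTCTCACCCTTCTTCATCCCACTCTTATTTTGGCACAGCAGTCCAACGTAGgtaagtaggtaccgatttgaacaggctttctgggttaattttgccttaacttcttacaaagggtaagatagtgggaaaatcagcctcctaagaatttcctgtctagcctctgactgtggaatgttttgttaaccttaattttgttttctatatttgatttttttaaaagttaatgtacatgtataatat
Col5a2 exon 30 peak, chr1:45401876-45402093, minus strand: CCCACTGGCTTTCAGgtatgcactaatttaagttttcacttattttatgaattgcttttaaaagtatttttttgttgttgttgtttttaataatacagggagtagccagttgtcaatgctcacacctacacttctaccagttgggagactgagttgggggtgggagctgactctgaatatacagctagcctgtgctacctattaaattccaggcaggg
In Col3a1, 60 of the 249 bases (24.1%) lay in exon 1 and the intron opened with gtaagt. The peak began downstream of the start codon, and the authors marked it as coding sequence only. In Col5a2, only 15 of the 218 bases (6.88%) lay in exon 30 and the intron opened with gtatgc. The summit lay in intron 30, 81 bp past the splice site, although the authors marked this peak as coding sequence only as well. Of the 312 peaks that the authors marked in this way and that could be matched by symbol, 179 were wholly exonic and 83 (26.6%) were less than 50% exonic. Among them, 10 had an exon share at or below that of the Col5a2 peak, itself included.

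The other 26 peaks were outside the authors' gene table. The 2 sequences that follow show what such intronic peaks look like: the Col5a2 peak of highest enrichment and the Col5a2 peak of smallest q-value. Capitals mark matches to DRACH, the consensus around m6A, which reads as A, G or T, then A or G, then A, then C, then A, C or T.
Col5a2 intron 1 peak of highest enrichment, chr1:45473530-45473748, minus strand: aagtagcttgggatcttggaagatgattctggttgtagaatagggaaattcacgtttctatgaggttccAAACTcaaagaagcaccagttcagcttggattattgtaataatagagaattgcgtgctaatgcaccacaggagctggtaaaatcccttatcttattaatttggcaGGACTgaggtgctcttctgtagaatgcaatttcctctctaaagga
Col5a2 intron 1 peak of smallest q-value, chr1:45467119-45467355, minus strand: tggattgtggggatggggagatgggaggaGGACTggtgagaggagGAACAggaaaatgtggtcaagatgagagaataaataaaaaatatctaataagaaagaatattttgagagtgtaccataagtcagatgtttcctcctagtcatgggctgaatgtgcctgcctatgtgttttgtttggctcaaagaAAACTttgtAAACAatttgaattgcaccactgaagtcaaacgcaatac
These stretches held 2 and 4 matches, and the GGAC core of the consensus was present in both.

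Each peak carries a pileup of RIP fragments at its summit and a local background from the input. The fold enrichment is the authors' own value for each peak, the RIP pileup over the input background with 1 added to both. One RIP fragment was worth 0.9 in the pileup. The range given in brackets is an exact 95% Poisson interval for the RIP count. It covers counting error in that library alone and leaves out the error of the input. Whether PCR copies were removed is not given in the sources used here, so they may be counted as separate molecules. Library depth is unknown, since no file used here gives a total. In bulk material, more cells that express a gene and more RNA of that gene per cell cannot be told apart.

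The 6 Col3a1 peaks were crowded into the 5′ end of the gene. Col3a1 (ENSMUSG00000026043) runs over chr1:45311538-45349706 on the plus strand, 38169 bp with 51 exons in its main transcript. All 6 peaks were centred in intron 1, which is 9664 bp long, 25.3% of the gene. Their summits lay 245 to 6590 bp from the start of the gene, and no peak was called in the remaining 31579 bp. Intron 1 held 6.21 peaks per 10 kb (95% counting interval 2.28 to 13.5), and the rest of the gene held 0 peaks in 28505 bp, for which 3 counts as the limit of a count of 0 allow up to 1.05 per 10 kb (exact 95% interval 0 to 1.29). The other 49 introns are short, the longest of them 1562 bp, and none held a peak.

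At the exon 1 splice site, Col3a1 had 154 RIP fragments against an input background of 91.0. The fold enrichment was 1.52 (1.29 to 1.78) with a q-value of 0.00151 from the authors. The peak was thus high in both libraries: its pileup ranked 123 and its fold enrichment 9246 among the 9271 peaks. Exon peaks of other coding genes with an input background of 80 to 100 numbered 38, and their median was 1.84 (quartiles 1.68 and 1.98, lowest 1.42). A hairpin annotated as a microRNA gene, Gm47302, overlaps this peak, and fragments of it and of Col3a1 cannot be told apart here.

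The 5 peaks deeper in intron 1 of Col3a1 stood further above the input. The peak at chr1:45313136-45314003, 868 bp wide, had 68 RIP fragments against a background of 12.9, a fold enrichment of 4.48 (3.49 to 5.66). The next peak along the intron had 77 RIP fragments against 14.0, which gave 4.69 (3.71 to 5.84) and a q-value of 1.68e-21, the smallest of the gene. These 2 peaks were the only ones over Col3a1 with a fold enrichment of 4 or more. The peak at chr1:45315704-45316137 was the tallest of the 5 in both libraries, with 138 RIP fragments against 42 and a fold enrichment of 2.91 (2.45 to 3.44). It touches an exon of a non-coding transcript of the gene. The last 2 peaks had the fewest RIP fragments of the 5, and fold enrichments above 2.91 but below those of the 2 highest. The peak at chr1:45317379-45317567 had 55 RIP fragments against 12.9, a fold enrichment of 3.64 (2.76 to 4.72), and that at chr1:45318011-45318200 had 63 against 16.0, a fold enrichment of 3.39 (2.62 to 4.33). The intervals of these 2 overlapped each other and those of the 2 highest peaks, which also overlapped each other.

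The input background over Col3a1 was high for this list, with a median of 15.0 over the 6 peaks, against 5.00 over peaks of the other coding genes. RIP fragments were likewise numerous, with a median of 72.5 for Col3a1 peaks and 29.0 for peaks of the other coding genes. Fold enrichment falls as background rises in this list, so peaks were also set beside others of like background. The 4 Col3a1 peaks with a background of 10 to 20 had fold enrichments of 3.39 to 4.69, with a median of 4.06. The 893 peaks of other coding genes in that range that touched no exon had a median of 3.21 (quartiles 2.71 and 3.76). All 4 Col3a1 peaks lay above that median and 2 lay above the upper quartile.

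**Figure D1:**
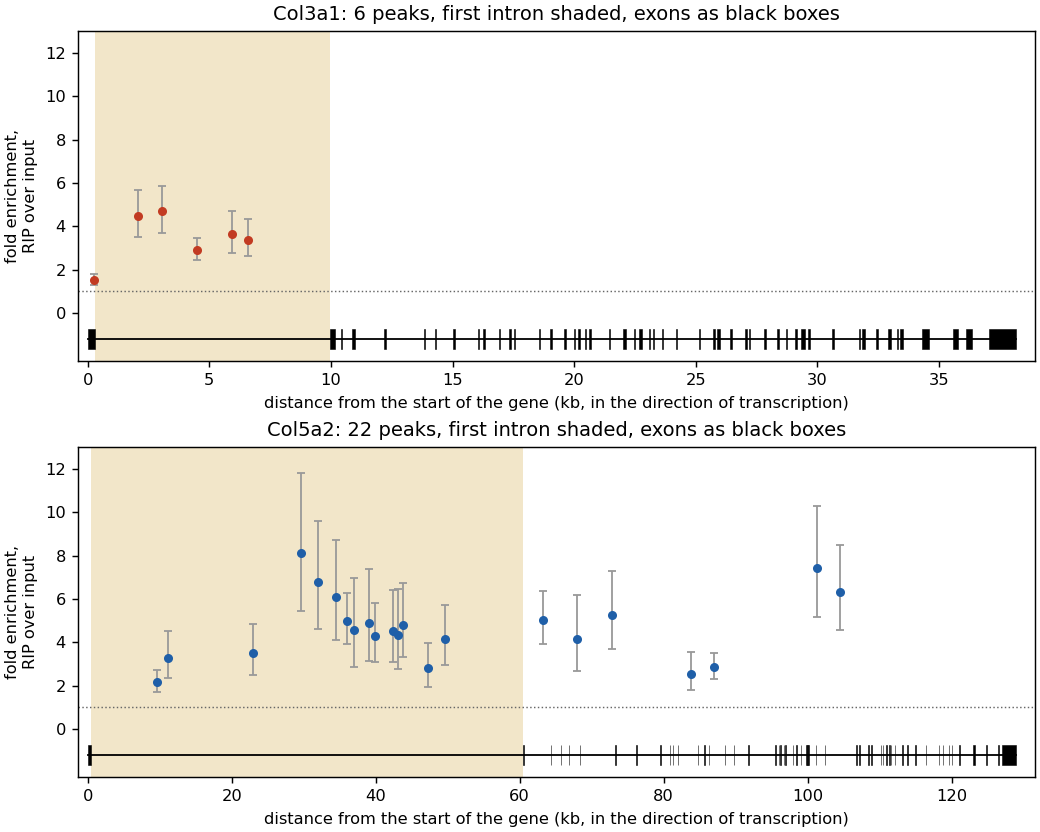
Fold enrichment of RIP over input (vertical axis, ratio) at the summit of each peak against distance from the start of the gene in kb, for Col3a1 above and Col5a2 below. Points are peaks, bars are exact 95% Poisson intervals for the RIP count, black boxes are exons of the main transcript, the shaded area is intron 1 and the dotted line is a ratio of 1. All 6 Col3a1 points lie within 6590 bp of the start, while Col5a2 points reach 104545 bp from the start with 15 of 22 in intron 1.

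Col5a2 carried one of the larger numbers of peaks of any coding gene, spread over most of its length. Col5a2 (ENSMUSG00000026042) runs over chr1:45374321-45503282 on the minus strand, 128962 bp with 54 exons. Its 22 peaks placed it joint 12th among coding genes, with 11 genes holding more. Summits lay 9581 to 104545 bp from the start, and the last 24417 bp of the gene held none. Intron 1, 59952 bp or 46.5% of the gene, held 15 peaks, 2.50 per 10 kb (1.40 to 4.13). The rest of the gene held 7 peaks, 1.01 per 10 kb (0.408 to 2.09). The 2 intervals overlapped.

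The 15 peaks in intron 1 of Col5a2 were of moderate height in the RIP library. The 3 nearest to the start of the gene had fold enrichments of 2.18 (1.72 to 2.73), 3.29 (2.34 to 4.50) and 3.51 (2.47 to 4.86). The first of them, at chr1:45493655-45494040, had 74 RIP fragments and the highest input background over the gene, 30.0. The second, at chr1:45492000-45492239, lies inside Gm38211, an unclassified transcript annotated on the same strand, and its fragments cannot be assigned to one or the other.

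Next came a run of 10 peaks, 29.7 to 43.8 kb from the start, with less than 3 kb between neighbouring summits. Their fold enrichments ran from 4.28 to 8.13 with a median of 4.86. The peak of highest enrichment over the pair opened this run: it had 26 RIP fragments against an input background of 2.00, a fold enrichment of 8.13 (5.43 to 11.8) and a q-value of 9.05e-14. It ranked 337 of 9271 by fold enrichment, yet its pileup stood only at the 42.5th percentile of the list. The 2 peaks after it had 29 RIP fragments against 3 (fold enrichment 6.78, 4.62 to 9.62) and 27 against 3.16 (6.08, 4.09 to 8.74). The next peak, at chr1:45467119-45467355, was taller, with 71 RIP fragments against 12, a fold enrichment of 4.99 (3.92 to 6.28) and a q-value of 7.05e-21. The other 6 peaks of the run held 19 to 39 RIP fragments. Intron 1 ended with 2 more peaks, with fold enrichments of 2.80 (1.92 to 3.95) and 4.17 (2.96 to 5.73).

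The 7 remaining Col5a2 peaks lay one each in introns 2, 5, 6, 12, 15, 30 and 31. The peak in intron 2, at chr1:45439767-45440182, had 66 RIP fragments against 11.0, a fold enrichment of 5.03 (3.91 to 6.38). The peak in intron 15 had the most RIP fragments of the gene, 88 against 27.0, and a fold enrichment of 2.86 (2.30 to 3.52). It was the tallest Col5a2 peak and all of its bases are masked as repeats in the reference. The peak at the exon 30 splice site had 33 RIP fragments against 3.14, a fold enrichment of 7.41 (5.18 to 10.3) and a q-value of 4.59e-15. It ranked 583 by fold enrichment, above all but 1 of the other Col5a2 peaks. Its neighbour in intron 31, at chr1:45398617-45398803, had 41 RIP fragments against 5.00 and a fold enrichment of 6.32 (4.58 to 8.51), with 94.7% of its bases masked. Fold enrichment outside intron 1 ran from 2.56 to 7.41 with a median of 5.03, against 2.18 to 8.13 with a median of 4.52 inside it. The ranges overlapped almost wholly.

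Set against peaks of like background, Col5a2 peaks were mostly ordinary in height. The 10 Col5a2 peaks that touched no exon and had a background of 2.4 to 5.6 had a median fold enrichment of 4.86, against 4.88 for 2267 such peaks of other coding genes. The 8 with a background of 6.6 to 13 had 3.84, against 3.68 for 1462 others. The peak at 8.13 stood above the upper quartile, 6.63, of the 1079 others with a background of 1.5 to 2.4. Unlike the Col3a1 peaks, those over Col5a2 had a median input background, 5.01, close to the 5.00 of the other coding genes.

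Over the pair, the median fold enrichment was 4.40, equal to the median of the whole list, and 14 of the 28 peaks lay above it. A fold enrichment of 4 or more was reached by 18 of 28 peaks, 2 over Col3a1 and 16 over Col5a2, where 59.6% of all peaks reached it. A q-value of 1e-05 or less was reached by 23 of 28, 5 over Col3a1 and 18 over Col5a2, where 71.5% of all peaks did. The Col5a2 peaks nearest to the q-value limit were at 9.21e-06 inside it and 1.01e-05 outside it. The authors' gene table held 2 of the 28, where it held 16.6% of all peaks. These counts are a description, since the same peaks chose the pair.

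**Figure D2:**
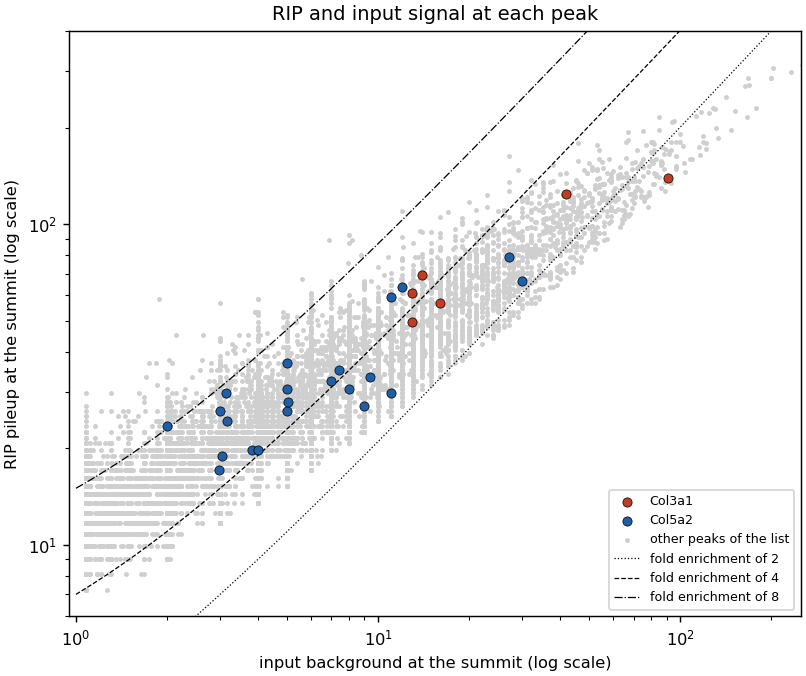
RIP pileup (vertical axis, log scale) against input background (horizontal axis, log scale) at the summit of every peak, with Col3a1 in red, Col5a2 in blue and all other peaks in grey. Lines mark fold enrichments of 2, 4 and 8. Col3a1 points have backgrounds of 12.9 to 91.0 and Col5a2 points of 2.00 to 30.0, and both sets lie within the band of the other peaks.

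Among 21853 protein-coding genes, 15.0% had at least 1 peak over the gene body, 1.73% had 6 or more, and 5.77% were named in the authors' gene table. Both members were in all 3 classes because the peaks chose them. Peaks per 10 kb of gene body came to 1.57 (0.577 to 3.42) for Col3a1 and 1.71 (1.07 to 2.58) for Col5a2. The 379 genes with 6 or more peaks had a median of 0.740 per 10 kb and reached 4.81. In that class 50 genes were denser than Col3a1 and 41 denser than Col5a2. Of the 2484 coding genes of 100 kb or more, 891 had a peak, with a median of 3 peaks, and 12 had at least 22.

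**Figure D3:**
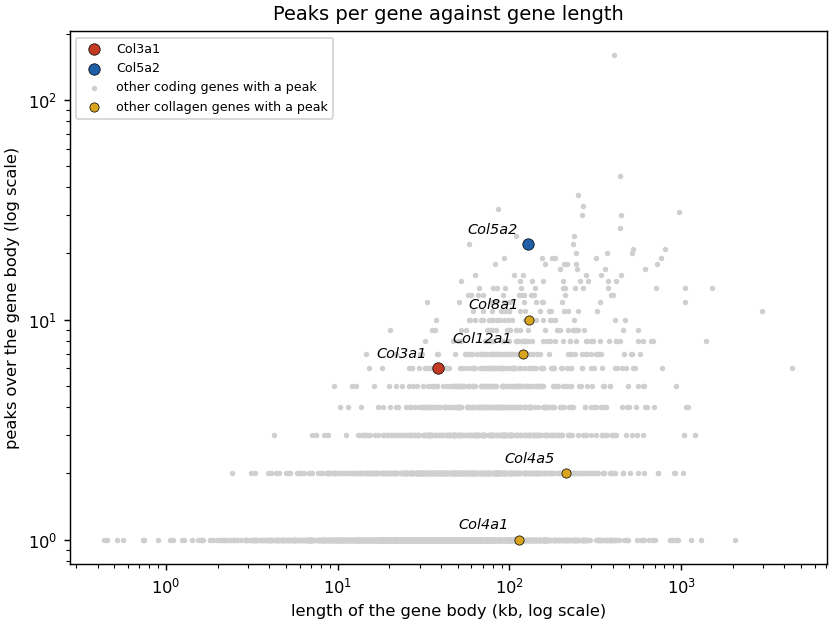
Number of peaks over the gene body (vertical axis, log scale) against the length of the gene body in kb (horizontal axis, log scale) for each coding gene with a peak. Col3a1 is in red, Col5a2 in blue and the 4 other collagen genes with a peak in gold. Col5a2 lies near the upper edge for its length with 22 peaks, and Col3a1 has 6 in a gene of 38.2 kb.

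The choice of the pair required a peak marked by element in the authors' table, and so an exon-touching peak in each gene. It did not name the intron in which the other peaks lay. The shares and intervals below include the required peaks, centred in intron 1 of Col3a1 and intron 30 of Col5a2. By peak centre, 100% of Col3a1 peaks (exact 95% binomial interval 54.1 to 100) and 68.2% of Col5a2 peaks (45.1 to 86.1) fell in intron 1. Over other coding genes 22.4% of 9028 pairs of a peak and a gene did, and intron 1 made up 22.1% of the length of those genes when averaged over the same pairs. In the 379 genes with 6 or more peaks, the pair included, the median share in intron 1 was 14.3%, where intron 1 made up 17.8% of the gene at the median. All peaks were centred in intron 1 in 10 of these genes and more than 50% of peaks in 66. Intron 1 takes up 25.3% of Col3a1 and 46.5% of Col5a2. This share was examined only after the positions of the peaks had been seen, so it is a description with no test. The intervals treat peaks of 1 gene in 1 library as independent, which neighbouring peaks need not be, and describe this library alone.

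**Figure D4:**
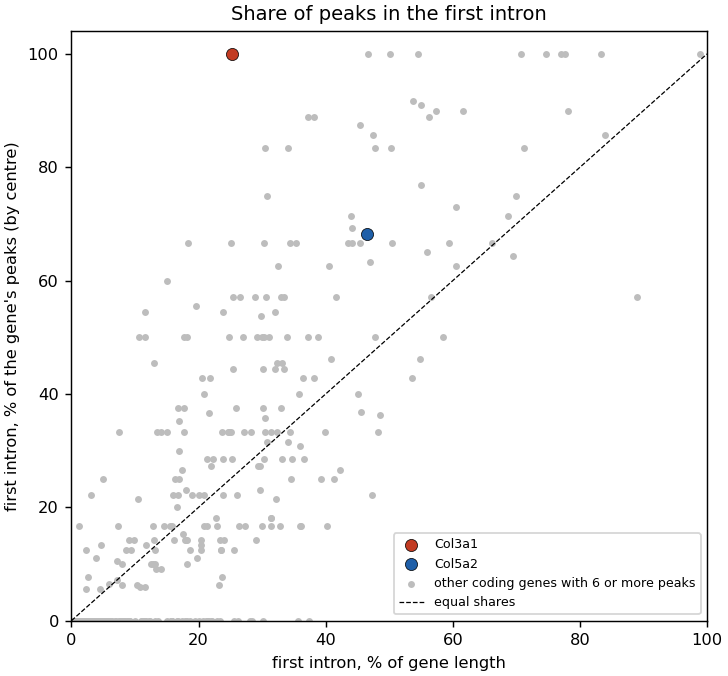
Share of a gene's peaks centred in intron 1 (vertical axis, %) against the share of the gene's length that intron 1 takes up (horizontal axis, %), for coding genes with 6 or more peaks. Col3a1 (red) lies at 100% of peaks and 25.3% of length, Col5a2 (blue) at 68.2% and 46.5%, and the dashed line marks equal shares.

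In Col3a1, 2 of 6 peaks (33.3%, 4.33 to 77.7) touched an exon of any annotated transcript, counting the non-coding one. In Col5a2, 1 of 22 did (4.55%, 0.115 to 22.8). Over other coding genes 22.4% of pairs touched one. The choice of the pair had required 1 such peak in each gene. Both shares and their intervals thus include a peak fixed in advance, and no comparison is drawn from them. No peak lay over the stop codon or the 3′ untranslated region of either gene. The deposited peaks were not split by strand, so fragments were assigned to Col3a1 or Col5a2 by position only. The protocol words its library steps for DNA and does not mention a DNase step, and the part of DNA in the intronic signal was not tested.

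No peak lay near the facing ends of the pair. The genes point towards each other with 24614 bp between their 3′ ends, and no peak was called there, while the nearest Col3a1 and Col5a2 peaks lay 80416 bp apart. On the Col3a1 side the next peak was 517 kb away in Gulp1, an adaptor of phagocytosis. Gulp1 had 20 peaks over 245328 bp and a highest fold enrichment of 6.96. On the Col5a2 side the next peak was 295 kb away in Wdr75, a factor of ribosome biogenesis with 3 peaks and a highest fold enrichment of 7.23. Both neighbours were in the authors' gene table.

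Pooled over each gene, the bases under the peaks were richer in G and C than the introns around them. Col3a1 peaks, 60 bases of exon 1 among them, were 40.1% GC, against 33.3% for the rest of intron 1. Col5a2 peaks in intron 1 were 38.2% GC, against 35.7% for the rest of that intron. Some single Col5a2 peaks in intron 1 lay below the rest of that intron, the lowest at 26.4%. Peaks of other coding genes that touched no exon were 43.4% GC. Repeats masked in the reference made up 25.8% of the Col3a1 peak bases and 28.0% of the Col5a2 peak bases, over all peaks of each gene. For other coding genes the share was 36.8% over all peaks and 41.7% over peaks that touched no exon. Within intron 1, the share was 25.8% in Col3a1 peaks and 18.6% outside them, and 19.7% in Col5a2 peaks and 29.5% outside them. More than 50% of bases were masked in 1 Col3a1 peak and 3 Col5a2 peaks, and 2 Col5a2 peaks held no masked base, among them the peak of highest enrichment. How fragments with several matches in the genome were handled is not given in the sources used here.

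DRACH was counted on the strand of the gene. All 28 peaks held at least 1 match, as did 96.4% of peaks of other coding genes, so presence alone set few peaks apart. Density was 22.3 per kb in Col3a1 peaks (49 matches, counting interval 16.5 to 29.4) and 20.9 per kb in the rest of intron 1. In all Col5a2 peaks it was 17.1 per kb (101 matches, 14.0 to 20.8). The Col5a2 peaks in intron 1 had 17.8 per kb, against 19.9 per kb in the rest of that intron. The density in peaks was thus a little higher than around them in Col3a1 and a little lower in Col5a2. In each gene the density around the peaks lay inside the counting interval, which for Col5a2 covers all of its peaks. No interval was made for the Col5a2 peaks in intron 1 alone. Peaks of other coding genes held 17.9 per kb. A single Col3a1 peak, the 868 bp one, held 25 of the 49 matches, so the direction in Col3a1 leans on that peak. GGAC stood in 13 of the 28 peaks (46.4%), 3 over Col3a1 and 10 over Col5a2, and in 46.0% of peaks of other coding genes. A match is a run of letters and does not show that a base was methylated or bound.

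Within the collagen family, the pair held 28 of the 48 peaks. Of 44 collagen chain genes, 6 had a peak (13.6%, where 15.0% of all coding genes did): Col5a2 had 22, Col8a1 10, Col12a1 7, Col3a1 6, Col4a5 2 and Col4a1 1. Per length, the pair had 28 peaks in 167 kb, 1.68 per 10 kb (1.11 to 2.42), against 20 peaks in 5198 kb of the 42 other chains, 0.0385 per 10 kb (0.0235 to 0.0594). Over all other coding genes there were 0.0844 per 10 kb. The pair was chosen for having peaks, so this contrast is a description.

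Of the 11 fibrillar chains, 2 had a peak (18.2%, where 15.0% of all coding genes did), and these are the pair chosen for it. The other chains included Col1a1 and Col1a2, which encode type I collagen, and Col5a1, the chain that the Col5a2 product pairs with in type V collagen. Expression was not measured apart from the input background at peaks, so a gene without a peak may be unexpressed or unbound, and occupancy also follows expression. Col8a1, a short-chain collagen of vessel walls and basement membranes, came closest to Col5a2 in layout. It had 5 of 10 peaks in an intron 1 that makes up 58.4% of the gene, and its highest fold enrichment was 6.53 (3.79 to 10.6). Col12a1, a fibril-associated collagen, had 0 of 7 in intron 1 and a highest fold enrichment of 4.44 (3.40 to 5.71). The basement membrane chains Col4a5 and Col4a1 reached 7.53 (4.95 to 11.0) and 4.08 (2.17 to 7.16). Of the 6, only Col3a1, Col5a2 and Col8a1 were in the authors' gene table.

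Genes that build, crosslink and bind collagen fibrils were read against the 15.0% of all coding genes with a peak. Of 19 genes of collagen folding, modification and transport out of the cell, 4 (21.1%) had a peak over the gene body. None of the 19 was in the authors' gene table. They were the coat protein Sec23a (highest fold enrichment 6.09, 3.84 to 9.23), the prolyl hydroxylase subunit P4ha1 (4.90, 3.22 to 7.19, with 4 peaks), the lysyl hydroxylase Plod2 (4.17, 2.96 to 5.73) and the coat protein Sec24d (3.04, 2.30 to 3.96). Of 13 genes of procollagen processing and crosslinking, 2 (15.4%) had a peak, both in the authors' gene table. Pcolce2, an enhancer of procollagen cleavage, reached 6.96 (4.11 to 11.2). Lox, the lysyl oxidase that crosslinks fibrils, reached 1.46 (1.25 to 1.69) at 177 RIP fragments against an input background of 109, an exon peak high in both libraries like that of Col3a1 exon 1.

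Of 13 fibril partners, 4 (30.8%) had a peak: the microfibril protein Fbn1 reached 6.66 (4.65 to 9.27), the matricellular protein Postn 6.64 (3.98 to 10.5), fibronectin (Fn1) 2.95 (2.36 to 3.64) and thrombospondin Thbs1 1.92 (1.63 to 2.25). Of 11 collagen receptors, 2 (18.2%) had a peak: the receptor kinase Ddr2 reached 5.10 (2.91 to 8.44) and the integrin subunit Itgb1 3.97 (2.56 to 5.91). Of the 9 matched proteases and inhibitors of collagen breakdown, 0 had a peak. With so few genes in each list, these shares say nothing particular about collagen pathway genes.

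Collagens of type III and V are also made by fibroblasts, so marker genes were looked up. A peak was called over 0 of 10 myotube markers, 0 of 5 myoblast markers, 1 of 8 fibroblast markers (Postn), 0 of 3 endothelial markers and 0 of 2 immune markers. Of all coding genes, 15.0% had a peak, so lists this short do not tell 1 cell type from another. The levels of these markers were not measured at genes without a peak, so the myotube label could not be checked and the part of other cell types in the signal over the pair was not tested.

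The authors' deposited tables of Gene Ontology (GO) terms and KEGG pathways count genes of their gene table, each gene once whatever its number of peaks. The authors' deposited table of GO terms placed either gene in 138 terms, 60 of them with both, 68 with Col3a1 only and 10 with Col5a2 only. An FDR under 0.05 was reached by 29 of the 138 in the authors' deposited table, 10 of them with both genes. The share of all GO terms that reached this limit was not computed, so 29 of 138 cannot be called many or few. Most of these 10 terms were broad, such as binding (675 genes where 577 were expected) and protein-containing complex (289 where 202 were expected), per the authors' deposited table. The narrower ones were supramolecular fiber organization, with 39 genes where 19.9 were expected (FDR 0.00169), and skin development, with 21 where 10.7 were expected (FDR 0.0416), per the authors' deposited table.

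The GO terms closest to the function of the pair lay on both sides of the expected number. In the authors' deposited table, collagen fibril organization held 5 of its 34 annotated genes against 2.09 expected (p = 0.0546, FDR 0.293), and the other members were Foxc1, Lox and Tgfb2. Extracellular matrix structural constituent held 2 of 27 genes, the pair itself, where 1.64 were expected (FDR 0.746) in the authors' deposited table. Extracellular matrix organization held 10 of 150 genes where 9.20 were expected (FDR 0.680) in the authors' deposited table. Below the expected number in the authors' deposited table were collagen trimer, with 4 of 85 genes where 5.22 were expected (FDR 0.882), and extracellular matrix, with 17 of 363 where 22.3 were expected (FDR 0.975). Extracellular region held 62 of 1640 genes where 101 were expected, also in the authors' deposited table. The authors' deposited table of KEGG pathways placed both genes in the same 5 pathways. Focal adhesion, the pathway of cell attachment to matrix, was the only one of the 5 with an FDR under 0.05, holding 23 of its 191 annotated genes against 11.1 expected (p = 6.54e-04, FDR 0.0358) in the authors' deposited table. ECM-receptor interaction held 7 of 82 genes where 4.77 were expected (FDR 0.565), and Protein digestion and absorption held 2 of 78, the pair alone, where 4.54 were expected (FDR 1.00), both in the authors' deposited table. Both members count in each of these terms through 1 peak at a splice site. The share of all KEGG pathways with an FDR under 0.05 was not computed either.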

How the data were processed

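Per the labels and the design text, 1 YTHDF2 RIP library and 1 input library of C2C12 myotubes were sequenced, aligned to mm10 with Bowtie, and used for peak calling with MACS. The submitters' processing notes also list Trim Galore, FastQC, HOMER, Picard, DiffBind and deepTools. Their versions are not given in the sources used.

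The deposited peak list holds for each summit a pileup signal, a linear ratio of RIP to local input called fold enrichment, and a −log10 p-value and −log10 q-value, per the file headers. The authors' deposited tables of GO terms and KEGG pathways give numbers of genes, an expected number, a Fisher p-value and its FDR. A deposited table of peaks per element, and files that repeat these tables, were not used.

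All pileups were whole multiples of 0.9 (tolerance 1e-06), read as 1 RIP fragment each. The input background was computed from pileup and fold enrichment, and Poisson p-values computed from it matched the deposited −log10 p-value within 0.01 at 100% of peaks. For 18 of the 28 peaks of the pair it was a whole number (tolerance 0.01), and for 10 it followed from a 10 kb window of input.

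Peaks were placed on GENCODE M21 gene models of GRCm38 by an overlap of at least 1 bp, with introns counted in the main coding transcript and assigned by peak centre. The overlap step was checked on simulated data. Sequence came from RefSeq GRCm38, with soft-masked bases taken as repeats. Shares carry exact Clopper-Pearson intervals and rates exact Poisson intervals. No test was made, since each group is 1 library. Python 3.11.15, numpy 2.4.6, pandas 2.3.3, scipy 1.17.1, matplotlib 3.10.9, samtools 1.23.1 and pysam 0.24.0 were used.

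The members, gene lists and alternatives were chosen with earlier results of these data known. Named genes were both members with every peak, other collagens in the authors' table or with most peaks (up to 5), up to 4 members with a peak per list by fold enrichment, and the coding genes next to the pair on either side. The ranges of like background were set after the values were seen. Mmp1a could not be matched. The sequence of 1 Col3a1 peak is not reported here. Alternatives were other peak thresholds, other rules for placing peaks, fold enrichment without the added 1, and GGAC in place of DRACH.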

Additional observations from a re-analysis of the deposited data

How the results depend on the processing

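Counts were held to within 1.5 times and other values to their 95% interval: of 31 alternatives, 21 stayed within and 10 moved. A reversal of direction was not looked for. Some of the 21 could not have moved. The interval of the Col3a1 median fold enrichment, 1.52 to 4.69, spans all of its peaks, so no subset median can leave it. All Col3a1 peaks were centred in intron 1, so any subset by fold enrichment or q-value gives 100%. Keeping peaks of fold enrichment 4 or more left 2 of 6 over Col3a1 and 16 of 22 over Col5a2. Counting only rows of the authors' gene table left 1 peak for each gene, and 3 of 6 collagen genes, by construction. With exonic length and exon peaks only, the density was 2.04 per 10 kb for Col3a1 and 1.04 per 10 kb for Col5a2, in place of 1.57 and 1.71. By peak centre the share of Col5a2 peaks in an exon was 0% in place of 4.55%. Without the added 1 the median fold enrichment of Col5a2 peaks was 5.27 in place of 4.53, at the upper end of its interval. GGAC in place of DRACH gave 1.36 per kb for Col3a1 and 2.20 per kb for Col5a2, since it is the rarer motif. The single Col5a2 peak that touches an exon had 9.17 DRACH per kb. The share of peaks in intron 1 and its alternatives were chosen after seeing the data: it was 83.3% by summit for Col3a1, whose exon 1 peak has its summit in the exon, and 68.2% to 72.2% over the alternatives for Col5a2. No paired analysis was possible because each group is 1 library and no result comes from a test. Where no reason is given, the cause was not tested. Counting intervals on the highest Col5a2 peaks were wide because they rest on few RIP fragments, and they leave out the error of the input.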
